A study of Mus musculus with 11 samples.

Results

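The miR-183, miR-96 and miR-182 cluster was followed through sorted mouse CD8+ T cells by small RNA sequencing. Its 4 members were the rows named mmu-miR-183-5p, mmu-miR-183-3p, mmu-miR-96-5p and mmu-miR-182-5p, matched by name among 2128 deposited rows. They were chosen with earlier results of these data known. The 11 libraries formed 4 groups, Dirty_VM, Dirty_TN and Clean_VM with 3 libraries each and Clean_TN with 2 (replicates 2 and 3). The labels do not spell out VM and TN, which are read here as virtual memory, a memory-like state that CD8+ T cells reach with no encounter with foreign antigen, and true naive. The libraries came from spleens of mice labelled dirty or clean. All cells were sorted as CD4-, CD8+, CD49d low and GFP+, then split by CD44 into the high fraction called stamped VM and the low fraction called stamped TN. Each sort put 10000 cells into Trizol, at a purity over 95% per the labels' protocols. The meaning of dirty and of stamped, the source of the GFP, and the strain, age and sex of the mice are not given in the sources used here. Nothing says that replicates came from separate animals, so each p-value measures the spread between these libraries only, which may be technical.

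The cluster's 3 hairpins are cut from a shared primary transcript in mouse, and it is best known from sensory organs, where mutations in the miR-96 seed cause hearing loss in mice and people. In mouse CD4+ helper T cells miR-182 is induced by interleukin-2 signalling and represses Foxo1, a transcription factor that keeps resting T cells quiescent. A miRNA finds its targets mainly through its seed, bases 2 to 8 from the 5′ end.

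On mm10 (RefSeq GRCm38.p6, the same coordinates in GENCODE M21) the hairpins lie on the minus strand of chromosome 6. Mir183 is at 30169668 to 30169737, Mir96 at 30169446 to 30169551 and Mir182 at 30165918 to 30165992. Mir183 and Mir96 are 116 bp apart, Mir96 and Mir182 3453 bp, and the whole cluster spans 3820 bp. No other GENCODE gene overlaps that span. The nearest protein-coding genes are Nrf1, 12459 bp away on the other strand, and Ube2h, 41551 bp away. All 4 members matched a mature sequence in RefSeq. The sequences are shown, with seeds in capitals, because the 3 5p arms have near-identical seeds.
mmu-miR-183-5p: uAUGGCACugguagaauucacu
mmu-miR-96-5p: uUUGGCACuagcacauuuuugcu
mmu-miR-182-5p: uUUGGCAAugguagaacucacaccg
mmu-miR-183-3p: gUGAAUUAccgaagggccauaa
Counted from 1 at the 5′ end, the seeds of miR-96-5p and miR-182-5p differ by C8A, and those of miR-96-5p and miR-183-5p by U2A. Over their whole length, set side by side from base 1, miR-182-5p is closest to miR-183-5p, with 18 of 22 positions identical, against 13 of 22 for miR-96-5p with miR-183-5p. The seed of miR-183-5p occurs in no other of the 1679 mature mouse miRNAs in the RefSeq table, and that of miR-96-5p in 1 other, miR-1271-5p, which has no count in these libraries. Both arms of miR-183 were counted. They stand in capitals in its hairpin, the 5p arm first.
Mir183: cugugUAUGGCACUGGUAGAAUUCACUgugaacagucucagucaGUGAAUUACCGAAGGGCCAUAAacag

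Library totals ran from 2614396 to 16312004 estimated counts and fell into 5 shallow and 6 deep libraries, with both kinds in every group. Each group held only 1 or 2 libraries of each kind, and Clean_TN 1 of each. Levels are given in CPM, counts scaled to a common library total. With 3 counts as the floor, a miRNA with a count of 0 could lie at 0.186 CPM or less in the deepest library and 1.16 CPM or less in the shallowest. Such floors and the Poisson intervals given here cover counting error only. Dirty_TN replicate 3 stood apart from its group: its counts differed from those of replicates 1 and 2 by chi-squares of 1972 and 607 per degree of freedom, where the pairs without it had 42.2 to 264. The lymphocyte miRNAs miR-150-5p, miR-142a-3p, miR-142a-5p and miR-155-5p together held 85290 to 99516 CPM in Dirty_VM and 72758 to 136700 CPM in Dirty_TN, against 83175 to 108990 CPM in Clean_VM and 133600 to 141170 CPM in Clean_TN. 1 of these 4 was higher and 1 lower in VM cells of clean mice. In a bulk sort, more of a miRNA per cell and more cells that carry it cannot be told apart. The comparisons asked how the cluster's miRNAs differ between VM and TN cells and between dirty and clean mice.

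miR-182-5p and miR-183-5p held nearly all of the cluster's reads. miR-182-5p made up 66.1% of them, with 38524 reads over all libraries, miR-183-5p 31.9% with 18599, miR-96-5p 1.86% with 1084 and miR-183-3p 0.065% with 38. Among the 545 rows that passed the filter on low counts, miR-182-5p ranked 94th and miR-183-5p 111th by mean level, at 453 and 228 CPM, and miR-96-5p 247th at 12.4 CPM. Library kits capture miRNA sequences unequally, so these are shares of reads, and the comparisons that follow set each miRNA against itself in other libraries. 3 of the 4 members passed the filter, and miR-183-3p did not.

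miR-183-5p was high in Clean_VM, low in Clean_TN and scattered in the dirty groups. Dirty_VM replicates 1, 2 and 3 had 182, 311 and 218 CPM, against 372, 226 and 104 CPM in Dirty_TN. Clean_VM replicates 1, 2 and 3 had 321, 300.4 and 336 CPM, against 70.6 and 69.3 CPM in Clean_TN replicates 2 and 3. The clean groups did not overlap, as in 52.7% of all 545 rows tested, and the range of Dirty_TN enclosed that of Dirty_VM. Group means were 237 ± 66.4 CPM (SD, n = 3) in Dirty_VM, 234 ± 134 (n = 3) in Dirty_TN, 319 ± 17.8 (n = 3) in Clean_VM and 69.9 ± 0.914 (n = 2) in Clean_TN. Clean_VM was therefore highest and Clean_TN lowest, with the dirty groups between them at means that differed by less than their own SD. In Dirty_TN the highest library was 3.57-fold above the lowest, where Clean_VM spread over 1.12-fold.

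miR-182-5p followed the same order of libraries almost exactly. Dirty_VM replicates 1, 2 and 3 had 367, 535 and 523 CPM, against 726, 395 and 267 CPM in Dirty_TN. Clean_VM had 616, 568 and 633 CPM, against 179 and 171 CPM in Clean_TN. As for miR-183-5p, Dirty_TN replicate 1 was the highest of all 11 libraries, the Clean_TN libraries were the lowest, and the dirty groups overlapped. Group means were 475 ± 93.9 CPM (SD, n = 3) in Dirty_VM, 463 ± 237 (n = 3) in Dirty_TN, 606 ± 33.6 (n = 3) in Clean_VM and 175 ± 6.14 (n = 2) in Clean_TN.

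miR-96-5p, from the hairpin between the others, was ordered by cell subset in both environments. Dirty_VM replicates 1, 2 and 3 had 18.1, 17.7 and 20.6 CPM, against 8.22, 8.08 and 9.10 CPM in Dirty_TN. Clean_VM had 12.3, 14.0 and 14.0 CPM, against 7.47 and 6.33 CPM in Clean_TN. All 4 groups were separate on this scale, from Dirty_VM at the top through Clean_VM and Dirty_TN to Clean_TN. In the compared pairs of groups, 21.1% to 52.7% of all 545 rows had no overlap. The share of rows with all 4 groups apart was not computed. Group means were 18.8 ± 1.57 CPM (SD, n = 3) in Dirty_VM, 8.47 ± 0.555 (n = 3) in Dirty_TN, 13.5 ± 0.980 (n = 3) in Clean_VM and 6.90 ± 0.807 (n = 2) in Clean_TN. On library totals without TMM scaling, Dirty_TN at 6.86, 7.80 and 10.3 CPM overlapped Clean_TN at 8.44 and 6.80 CPM. These levels rest on few reads: counts ran from 343 in Dirty_VM replicate 3 to 21 in Clean_TN replicate 3. For the library with 21 reads the exact 95% Poisson interval was 4.21 to 10.4 CPM on library totals.

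**Figure D1:**
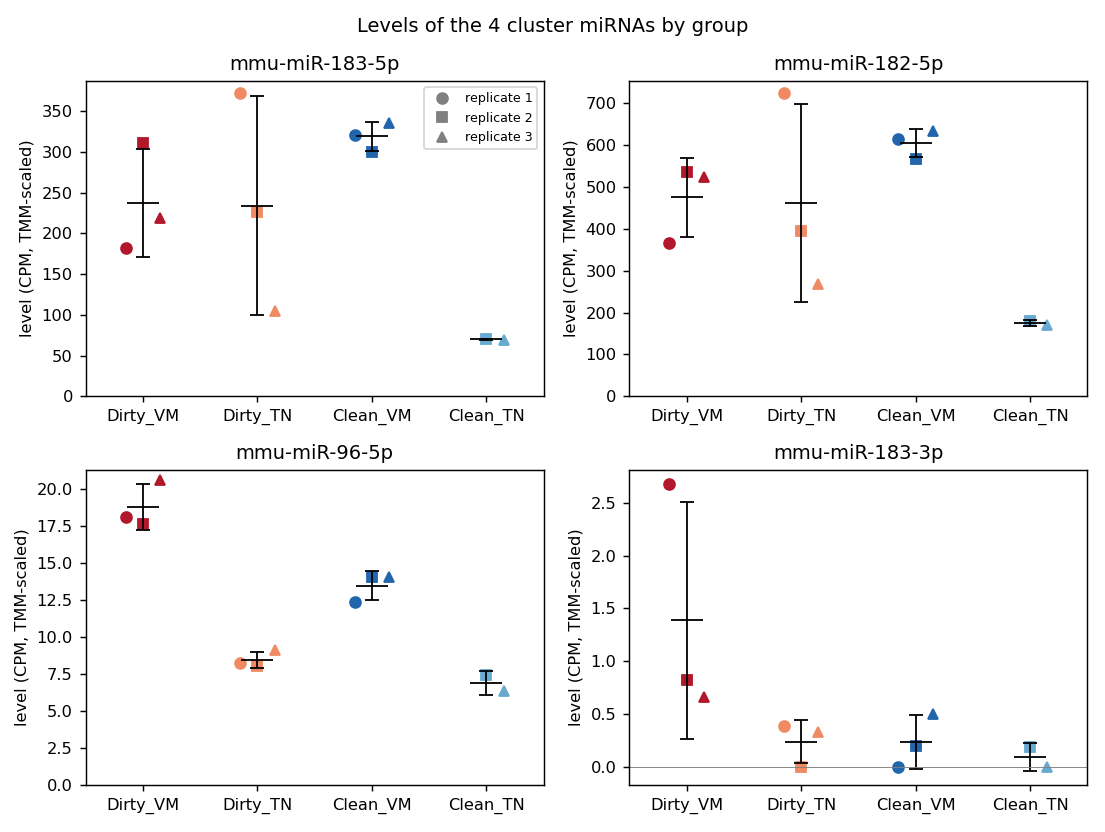
Level of each of the 4 cluster miRNAs (CPM on TMM-scaled totals, linear axes) in every library, by group; symbols mark the replicate number, and bars give the mean ± SD (n = 3, and n = 2 for Clean_TN). miR-183-5p and miR-182-5p share 1 pattern, with Dirty_TN spread from 104 to 372 CPM for miR-183-5p, while miR-96-5p is higher in both VM groups than in either TN group.

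miR-183-3p, the other arm of the miR-183 hairpin, was counted at the edge of detection. It had 9, 2 and 11 reads in Dirty_VM replicates 1, 2 and 3, against 3, 0 and 4 in Dirty_TN. Clean_VM had 0, 2 and 5 reads, against 2 and 0 in Clean_TN replicates 2 and 3. Dirty_VM held 22 of the 38 reads, and its highest level was 2.68 CPM in replicate 1. Fitted without the filter, its log2 change of VM minus TN was 2.22 ± 1.20 (SE) in dirty mice and 1.01 ± 1.53 in clean mice, with edgeR adjusted p-values of 0.386 and 0.803, so no difference was detectable at this depth. The passenger arm miR-96-3p had 8 reads in 6 libraries, and miR-182-3p had none in any library.

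In clean mice all 3 tested members were higher in VM than in TN cells, with no overlap between libraries. The log2 change of miR-183-5p was 2.19 ± 0.43 (SE, 95% interval 1.27 to 3.11, edgeR quasi-likelihood adjusted p = 0.0048), a 4.56-fold difference. That of miR-182-5p was 1.79 ± 0.35 (1.03 to 2.55, adjusted p = 0.0049), a 3.46-fold difference, and that of miR-96-5p 0.96 ± 0.26 (0.40 to 1.52, adjusted p = 0.024), a 1.94-fold difference. Of all 545 rows 17.4% passed in this comparison, 9.72% as higher and 7.71% as lower. These were 53 higher and 42 lower rows, which became 40 higher and 55 lower under library totals alone. Libraries did not overlap in 52.7% of rows. The median log2 change was 0.08 over all rows and 1.79 over the tested members. Within shallow and deep libraries the log2 differences were 2.21 and 2.17 for miR-183-5p, 1.85 and 1.74 for miR-182-5p, and 0.94 and 0.89 for miR-96-5p. The shallow values set 1 Clean_VM library against 1 Clean_TN library, and the deep values 2 against 1. The call of miR-96-5p was lost under library totals alone (adjusted p = 0.122), without the filter (0.156) and with the replicate number as a block (0.058). It was also lost without Clean_TN replicate 2 (0.122) or 3 (0.268), Clean_VM replicate 2 (0.127) or 3 (0.116), or Dirty_VM replicate 3 (0.061).

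In dirty mice only miR-96-5p passed among the tested members. It was 2.22-fold higher in VM than in TN cells, with a log2 change of 1.15 ± 0.23 (SE, 95% interval 0.66 to 1.64, edgeR adjusted p = 0.0049), and its libraries did not overlap. This call held in each of the 18 alternative fits, at adjusted p-values of 0.00076 to 0.037. The log2 change of miR-183-5p was 0.02 ± 0.35 (-0.74 to 0.77, adjusted p = 0.989) and that of miR-182-5p 0.04 ± 0.30 (-0.60 to 0.68, adjusted p = 0.965). These estimates depended on which library was kept. They were -0.28 and -0.17 without Dirty_TN replicate 3, 0.50 and 0.49 without Dirty_TN replicate 1, and -0.26 and -0.10 without Dirty_VM replicate 2, none passing. Of all rows 12.1% passed in dirty mice, 6.24% as higher and 5.87% as lower, and 30.5% had no overlap. The median over all rows was 0.02 and over the tested members 0.04. Within shallow and deep libraries the differences were 0.07 and 0.15 for miR-183-5p, 0.17 and 0.25 for miR-182-5p, and 1.12 and 1.23 for miR-96-5p. They rest on 1 or 2 libraries per group and are no separate replication.

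Averaged over both environments all 3 tested members passed as higher in VM cells, at log2 changes of 0.91 to 1.10, where 23.7% of all rows passed, 11.4% as higher and 12.3% as lower. For miR-183-5p and miR-182-5p that average joins a difference in clean mice to an estimate near 0 in dirty mice. For miR-96-5p it joins similar values.

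**Figure D2:**
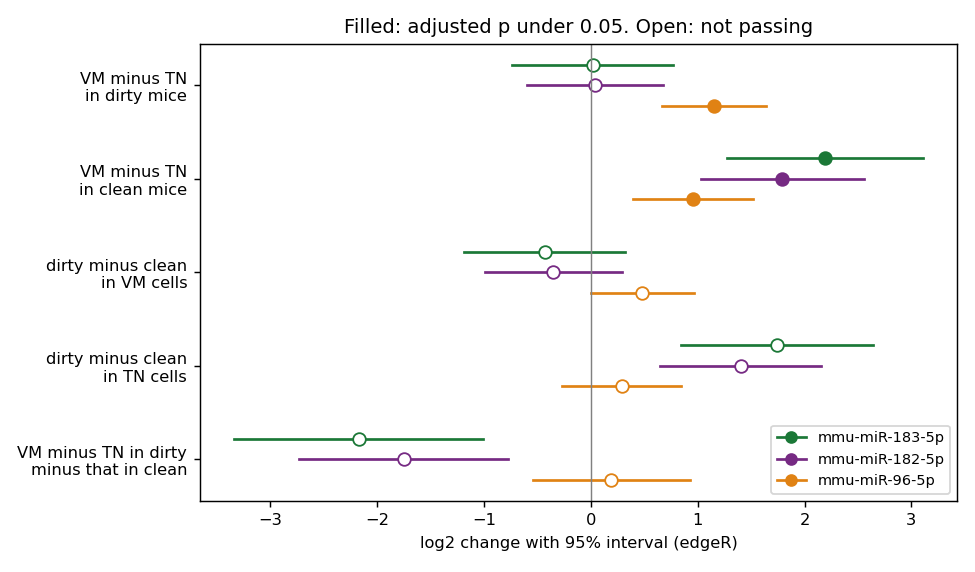
Log2 change (x axis) of the 3 tested members in 5 comparisons (y axis), as edgeR estimates with 95% intervals; filled points have an adjusted p under 0.05. miR-96-5p is to the right of 0 for VM minus TN in dirty (1.15) and clean mice (0.96), while miR-183-5p and miR-182-5p are near 0 in dirty mice and at 2.19 and 1.79 in clean mice.

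Set against clean mice, the dirty TN libraries had more miR-183-5p and miR-182-5p without passing the test over all rows. The log2 change of dirty minus clean in TN cells was 1.74 ± 0.42 (SE, 95% interval 0.84 to 2.64) for miR-183-5p and 1.40 ± 0.35 (0.65 to 2.15) for miR-182-5p, each at an edgeR adjusted p of 0.339 and unadjusted p-values of 0.0011 and 0.0014. All 3 Dirty_TN libraries lay above both Clean_TN libraries in both miRNAs. Libraries did not overlap in 23.3% of all rows. edgeR called 0% of rows here, with 38 rows (6.97%) at an unadjusted p under 0.05, and DESeq2 called 3 rows. DESeq2 called both miRNAs, at adjusted p-values of 0.0071 and 0.012, as did edgeR without the filter and without Dirty_TN replicate 3 (0.0038 and 0.011). Without the filter the SEs of both were smaller than in the main fit, at 0.28 and 0.27. Without Dirty_TN replicate 1 the changes were smaller, at 1.09 and 0.78 (edgeR adjusted p = 0.749 each), and over the 18 alternative fits the adjusted p reached 0.950. miR-96-5p had 0.29 ± 0.26 (-0.27 to 0.85, edgeR adjusted p = 0.777), and 0.0095 without Dirty_TN replicate 3.

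In VM cells the direction was the other one for the abundant pair, within a wide error. The log2 change of dirty minus clean was -0.43 ± 0.35 (SE, 95% interval -1.18 to 0.32) for miR-183-5p and -0.35 ± 0.30 (-0.99 to 0.29) for miR-182-5p, with edgeR adjusted p-values of 0.626 and 0.645. All Dirty_VM libraries lay below all Clean_VM libraries for miR-182-5p, while those of miR-183-5p overlapped. miR-96-5p had 0.48 ± 0.22 (0.00 to 0.96, unadjusted p = 0.049, adjusted p = 0.330), with every Dirty_VM library above every Clean_VM one. Single libraries moved these values: without Dirty_VM replicate 2 they were -0.81 for miR-183-5p and -0.58 for miR-182-5p, without Clean_VM replicate 3 miR-182-5p had -0.23, and without Clean_VM replicate 1 miR-96-5p had 0.25. Libraries did not overlap in 21.1% of all rows. edgeR called 0% of rows, with 81 rows (14.9%) at an unadjusted p under 0.05, and DESeq2 called 22 rows, none of them a member.

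The difference between environments in the VM minus TN change was tested as an interaction. It was -2.17 ± 0.54 (SE, 95% interval -3.34 to -1.01) for miR-183-5p and -1.75 ± 0.45 (-2.73 to -0.77) for miR-182-5p on the log2 scale, at edgeR adjusted p-values of 0.0950 and 0.0952. For miR-96-5p it was 0.19 ± 0.34 (-0.54 to 0.93, adjusted p = 0.871). edgeR called 0% of rows, with 93 rows (17.1%) at an unadjusted p under 0.05, and DESeq2 called 41. miR-183-5p and miR-182-5p passed by DESeq2 (adjusted p = 0.0015 and 0.0021) and in edgeR without Dirty_TN replicate 3 (0.0011 and 0.0028). In edgeR they also passed without the filter, and with a filter of 10 CPM in at least 2 libraries (0.044 each). Without the filter their SEs were smaller than in the main fit, at 0.36 and 0.35. Over the 18 alternative fits their adjusted p-values reached 0.312. Within shallow and deep libraries the interaction was -2.14 and -2.02 for miR-183-5p, -1.68 and -1.49 for miR-182-5p, and 0.19 and 0.34 for miR-96-5p. With 1 or 2 libraries per group in a depth class, these values do not replicate the result.

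Across the 11 libraries miR-183-5p and miR-182-5p moved together and miR-96-5p less so. On log2 CPM the correlation of miR-183-5p with miR-182-5p was r = 0.99 (Spearman's rho = 0.98), that of miR-183-5p with miR-96-5p 0.55 (0.33), and that of miR-182-5p with miR-96-5p 0.58 (0.38). These describe libraries that share group, depth and scaling, and the lower counts of miR-96-5p add counting noise. Dirty_TN showed the parting most plainly: on TMM-scaled totals replicates 1, 2 and 3 spread over 3.57-fold in miR-183-5p and 2.72-fold in miR-182-5p, and over 1.13-fold in miR-96-5p. On library totals alone, miR-183-5p and miR-182-5p fell from replicate 1 to replicate 3 of Dirty_TN while miR-96-5p rose. There replicates 1, 2 and 3 had 310, 219 and 118 CPM of miR-183-5p, and 605, 381 and 304 CPM of miR-182-5p. They had 6.86, 7.80 and 10.3 CPM of miR-96-5p. The ratio of members within a library is the same on either scale.

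**Figure D3:**
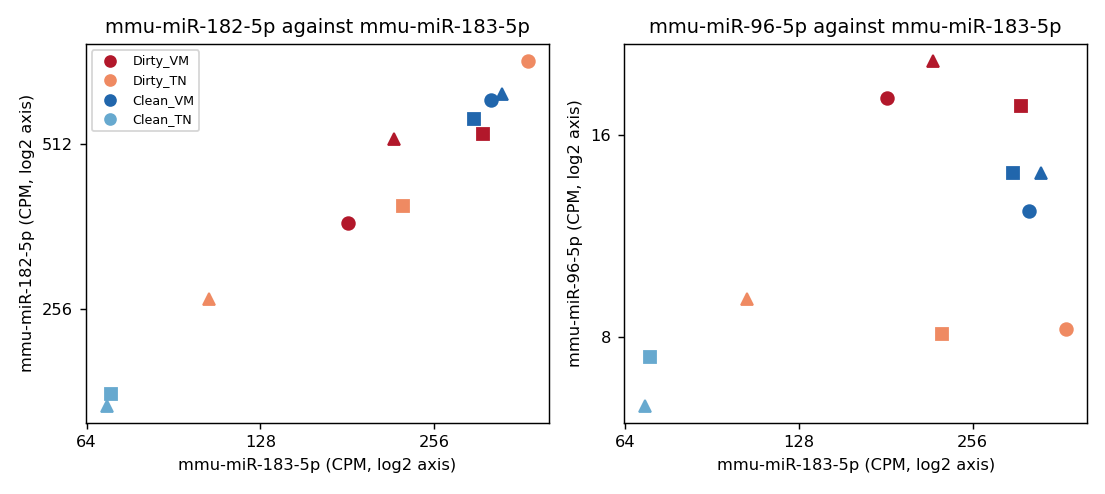
Level of miR-182-5p (left) and miR-96-5p (right) against miR-183-5p in each library (CPM, log2 axes), coloured by group, with circles, squares and triangles for replicates 1, 2 and 3. miR-182-5p follows miR-183-5p along a line (r = 0.99), while at like miR-183-5p levels the VM libraries lie above the TN libraries in miR-96-5p.

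Ratios within a library do not depend on scaling between libraries. The count of miR-182-5p over miR-183-5p lay between 1.72 and 2.56 in all 11 libraries. Its mean log2 ratio was 0.97 ± 0.16 (SD, n = 6) in VM and 1.15 ± 0.26 (n = 5) in TN libraries (difference -0.18; p = 0.203 by a two-sided exact permutation test, 0.727 when adjusted over 6 tests). In clean mice the ratio was 1.92, 1.89 and 1.88 in VM libraries and 2.54 and 2.46 in TN libraries, and those groups did not overlap, while in dirty mice they did.

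Per 100 reads of miR-183-5p, Dirty_VM replicates 1, 2 and 3 had 10.1, 5.75 and 9.44 reads of miR-96-5p, against 2.23, 3.63 and 8.77 in Dirty_TN. Clean_VM had 3.88, 4.69 and 4.19, against 10.6 and 9.33 in Clean_TN. The ratio was thus higher in VM than TN cells on average in dirty mice, by 0.98 on the log2 scale with overlapping libraries, and lower in clean mice, by -1.23 with none. Pooled over environments these offset each other: the difference was 0.00 between VM and TN libraries (exact permutation p = 0.944, 0.978 adjusted) and -0.04 between dirty and clean libraries (exact permutation p = 0.978, 0.978 adjusted). A test added after these values were seen permuted the environment labels within each subset. It gave a difference between environments of 2.21 on the log2 scale (exact permutation p = 0.025, adjusted p = 0.0525 over 3 ratios), which did not pass. It passed without Dirty_TN replicate 3 (adjusted p = 0.025) and with a pseudocount of 1 (0.0375). Such a permutation assumes no environment difference in either subset, so it does not test the interaction alone. The ratio also has miR-183-5p as its denominator, so it is not independent of that miRNA's own interaction.

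The ratio of miR-183-3p to miR-183-5p rested on 0 to 11 reads of the 3p arm in a library. Its difference was 0.24 on the log2 scale between VM and TN libraries (exact permutation p = 0.836, 0.978 adjusted) and 1.07 between dirty and clean libraries (exact permutation p = 0.242, 0.727 adjusted). That of miR-182-5p over miR-183-5p was -0.05 between dirty and clean libraries (exact permutation p = 0.658, 0.978 adjusted). In the added test of the environments the 3p to 5p ratio gave 3.66 (exact permutation adjusted p = 0.0525) and that of miR-182-5p over miR-183-5p 0.38 (adjusted p = 0.17).

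**Figure D4:**
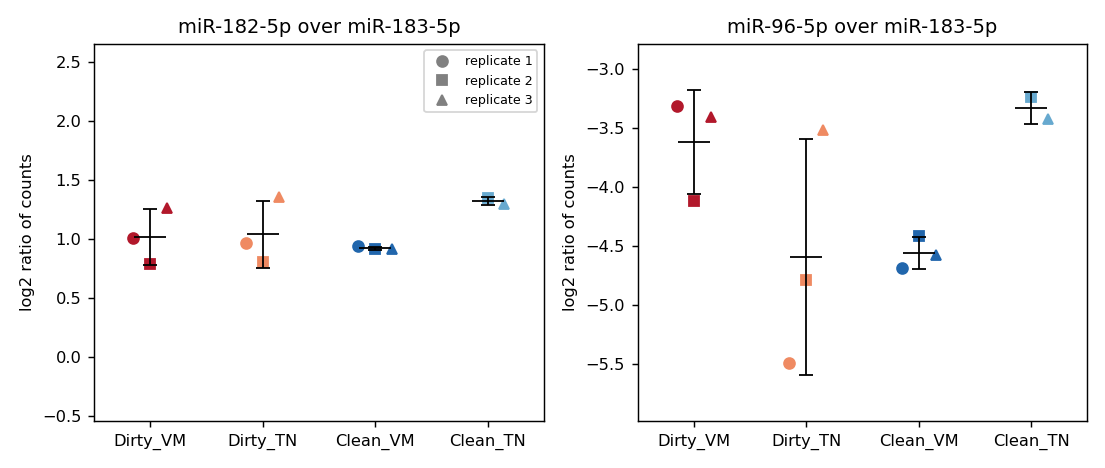
Log2 ratio of counts of miR-182-5p (left) and of miR-96-5p (right) to miR-183-5p in each library, by group, on axes of equal span; symbols mark replicates and bars the mean ± SD (n = 3, and n = 2 for Clean_TN). The left ratio stays between 0.78 and 1.36 in every library, while the right one is lower in Clean_VM than in Clean_TN and spreads from -5.49 to -3.51 in Dirty_TN.

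Of 260 other rows with a mean of 10 CPM or more, 5 were named as most alike to the mean log2 level of the 3 tested members over the 11 libraries. They were miR-130b-3p (r = 0.92, Spearman's rho = 0.62), miR-139-3p (0.92, 0.92), miR-130b-5p (0.91, 0.91), miR-328-3p (0.90, 0.83) and let-7d-3p (0.89, 0.68), picked by r. miR-139-3p averaged 489 CPM in Dirty_VM and 195 CPM in Dirty_TN, against 824 CPM in Clean_VM and 100.2 CPM in Clean_TN. miR-130b-3p averaged 63.7 CPM in Dirty_VM and 55.6 CPM in Dirty_TN, against 70.7 CPM in Clean_VM and 33.4 CPM in Clean_TN. All 5 had their lowest mean in Clean_TN, as the cluster did. That follows largely from their choice by correlation over these same libraries and is no separate result.

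A list of miRNAs tied to T cell activation and memory gives the cluster's context. Of its 10 tested members, 4 were higher and 1 lower in dirty VM than dirty TN cells, and 5 higher and 1 lower in clean mice, at medians of 0.56 and 0.52. Averaged over both, 5 were higher and 2 lower. miR-21a-5p, induced on T cell activation, had a log2 change of 2.08 ± 0.17 (SE) in dirty and 1.69 ± 0.20 in clean mice. miR-146a-5p, which dampens NF-kB signalling through Traf6 and Irak1, had 1.12 ± 0.22 in dirty and 1.01 ± 0.25 in clean mice, and miR-222-3p 0.87 ± 0.18 and 0.66 ± 0.20. miR-132-3p, known as a CREB-responsive miRNA of rodent neurons, fell by 1.33 ± 0.23 in dirty and by 1.40 ± 0.25 in clean mice. These 8 changes passed in edgeR, at adjusted p-values of 0.037 or lower. Other listed miRNAs passed in 1 environment alone, and are named here after their values were seen. miR-155-5p (0.95 ± 0.23) and miR-31-5p (1.88 ± 0.54) passed in clean mice, against 0.25 ± 0.20 and 1.02 ± 0.45 in dirty mice. miR-221-3p passed in dirty mice (1.09 ± 0.24), against -0.21 ± 0.27 in clean mice. None of the 10 passed for dirty against clean in TN cells (median 0.11), in VM cells (0.07) or as an interaction (0.09). For dirty minus clean in TN cells the list ran from -0.54 ± 0.26 for miR-221-3p to 1.46 ± 0.69 for miR-212-5p, both named here after their values were seen, beside the 1.74 of miR-183-5p and 1.40 of miR-182-5p.

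miRNAs of epithelia, where the cluster is also abundant, were present in these libraries. Their 8 listed members summed to 2761 to 3759 CPM in Dirty_VM and 2286 to 3183 CPM in Dirty_TN, against 2421 to 3278 CPM in Clean_VM and 2169.9 to 2312 CPM in Clean_TN. 2 of the 8 were higher in VM cells averaged over environments, miR-200a-3p by 0.72 ± 0.13 and miR-429-3p by 0.51 ± 0.17 (SE, log2 scale, edgeR adjusted p = 0.0017 and 0.048), and 1 in either environment alone. Most of the sum was miR-200b-3p and miR-203-3p, which did not pass, while miR-141-3p, miR-205-5p and miR-375-3p averaged at most 8.18 CPM in any group. The erythroid list summed to 64.1 to 109 CPM in Dirty_VM and 38.1 to 76.2 CPM in Dirty_TN, against 61.5 to 137 CPM in Clean_VM and 35.2 to 45.9 CPM in Clean_TN, and miR-486a-5p alone of its 3 tested members passed, in clean mice and averaged. The endothelial list lay at 15.3 to 53.0 CPM, the stromal list at 46.7 to 130 CPM and the myeloid list at 0.268 to 3.61 CPM over all libraries. The 5 stromal rows came from 4 listed miRNAs. miR-199a-3p has a row for each of its hairpins, at near-identical levels, and both rows are in the sum. 1 of 2 tested endothelial and 1 of 5 tested stromal rows passed averaged over environments, both higher in VM cells, the stromal one also in clean mice, and the single tested myeloid row did not. The part of these cells in the cluster's levels was not tested.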

How the data were processed

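The authors deposited a table of estimated counts (expected counts, 88.7% of values whole within 1e-09) per mature miRNA and hairpin for 11 libraries, and all values of the members were whole. The submitters' processing notes name mm10, while the aligner, counter and annotation release are not given in the sources used here. Libraries used the NEBNext Small RNA kit on 60 to 100 ng of RNA with inserts of about 18 to 35 bp, per the labels. Rows identical in name and values were kept once (120 removed, 0.889% of counts), leaving 2008 rows, and counts were rounded.

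A quasi-likelihood model (edgeR 4.0.16, R 4.3.3) with TMM scaling, robust estimation and a mean per group was fitted to the 545 rows kept by filterByExpr. Tests were two-sided, with Benjamini-Hochberg adjustment over these rows and a threshold of 0.05. SE is the absolute log2 change over the square root of F. CPM values use TMM-scaled totals. Log2 ratios used a pseudocount of 0.5 and exact permutation over libraries (scipy 1.17.1). Alternatives were DESeq2 1.42.0, 2 other scalings, 2 other filters, a replicate block, a depth term and leaving out each library. The fit was tested on simulated data. Named miRNAs were the members, their partner arms, the 5 rows most alike (log2 CPM, prior count 2), and in the activation list up to 4 with the smallest p. Members and lists were chosen with earlier results of these data known. No 2 libraries of a group agreed within sampling noise.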

Additional observations from a re-analysis of the deposited data

How the results depend on the processing

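Over 18 alternative fits, 295 of 324 values of single members kept direction and call, 14 passed newly, 8 no longer passed and 7 changed sign. miR-96-5p in dirty mice kept its call throughout. Members passing for dirty minus clean in TN cells numbered 0, and 2 by DESeq2 and without the filter (1163 rows tested). For the interaction they numbered 0, and 2 by DESeq2, without the filter and with the 10 CPM filter (296 rows). Leaving out 1 library gave 0 to 2 in both, with 2 only without Dirty_TN replicate 3. Over all rows, dirty minus clean in TN cells passed in 3 rows by DESeq2 and 4 without the filter. In VM cells 22 passed by DESeq2, 16 without the filter, 2 by library totals and 2 with 10 CPM. The interaction passed in 41 rows by DESeq2, 30 without the filter and 16 with 10 CPM. Leaving out 1 library gave 33 to 120 rows in clean mice, 42 to 94 in dirty mice, 0 to 28 in TN cells, 0 to 26 in VM cells and 0 to 73 for the interaction. Without 1 Clean_TN library, the lone one left is assumed to vary like the other groups. VM minus TN in dirty mice ran from -0.28 to 0.50 for miR-183-5p and -0.17 to 0.49 for miR-182-5p with 1 library left out, the low ends without Dirty_TN replicate 3 and the high ends without replicate 1. Whether replicate numbers pair the libraries was not settled. Of 15 same-numbered pairs, 6 had deviations correlating above 0.1 (range -0.55 to 0.42). All 6 joined libraries of the same depth class, and the other same-numbered pairs joined shallow with deep ones and correlated below 0. Pairs of the same depth class with different numbers all correlated above 0. They ran from 0.041 (Clean_VM replicate 2 with Dirty_TN replicate 1) to 0.55 (Clean_TN replicate 3 with Dirty_TN replicate 2). Pairing apart from depth was not tested. With the replicate block 56 rows passed in clean mice, against 95, and dirty minus clean in TN cells had an adjusted p of 0.865 for miR-183-5p and miR-182-5p. Library totals moved the median over all rows by -0.21 (VM minus TN, clean), by -0.18 (dirty minus clean, TN), by 0.11 (dirty minus clean, VM) and by 0.28 (interaction), with no sign change of a member. Among ratios, miR-96-5p over miR-183-5p for VM minus TN was -0.0049 with a pseudocount of 1, -0.054 in deep libraries and -0.35 to 0.22 with 1 library left out, and for dirty minus clean -0.20 to 0.24. miR-182-5p over miR-183-5p for dirty minus clean was 0.13 in deep libraries and -0.12 to 0.012 with 1 left out. miR-183-3p over miR-183-5p for VM minus TN was -0.57 in deep libraries, 1.24 in shallow ones and -0.34 to 0.70 with 1 left out, and for dirty minus clean 0.55 in deep and 1.75 in shallow libraries. Causes were not tested. Depth limits miR-183-3p most.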
